A study of Mus musculus with 10 samples.

Results

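The genes described here are the matrix metalloproteases (Mmp), the Adamts proteases (a disintegrin and metalloprotease with thrombospondin repeats) and the tissue inhibitors of metalloproteases (Timp). They were chosen by symbol, as Mmp or Adamts followed by a number (and a letter a or b for some Mmps) and as Timp1 to Timp4. This gave 46 genes of the 23230 features listed, namely 23 Mmp, 19 Adamts and 4 Timp genes. Expression was measured by RNA sequencing in 10 mouse libraries that fall into 3 groups and derive from 3 batches of astrocytes. AstroEGFR* (3 libraries, AstroEGFR*1 to 3) are C57BL/6 astrocytes from the cerebral cortex at postnatal day 5, which lack Ink4a/Arf and carry a retrovirus for EGFR variant III, a constitutively active human receptor. PT (4 libraries) are glioma propagating cells grown from tumours that such astrocytes formed in CD1 Nude mice; batch 1 gave rise to PT1 and PT4, batch 2 to PT2 and batch 3 to PT3, as the study assigns them. AstroEGFR* Zfp423 (3 libraries) are the same 3 batches of AstroEGFR* after viral overexpression of Zfp423, a zinc finger transcription factor. All groups thus shared the Ink4a/Arf deletion and EGFR*, and each astrocyte batch is 1 culture. Cdkn2a, the gene of Ink4a/Arf, was listed at 3.96 to 129.7 FPKM over the 10 libraries, a gene-level value that can hold exons outside the deletion and thus does not check it. AstroEGFR* were cultured with serum, and PT without it and with EGF and FGF2, so that the growth medium and the passage through a tumour cannot be told apart in any difference between them.

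Mmps are zinc proteases that cut collagens, laminin, fibronectin and many cell surface proteins. Most are secreted as inactive precursors, while the membrane-type Mmps stay on the cell surface and are switched on by furin-like convertases; Mmp14 on the surface activates proMmp2 in a complex that contains Timp2. Adamts proteases are secreted and bind the matrix, and their substrates include procollagens and the proteoglycans aggrecan, versican and brevican, which are abundant in the matrix of the brain. The 4 Timps bind the catalytic site of Mmps, and Timp3, which is held in the matrix, also inhibits several Adamts and Adam proteases. Invading glioma cells remodel the brain matrix, and these families are among the enzymes known for it.

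Some libraries stood apart from their group. The relative depth that could be read from steps in low values was 0.117 for AstroEGFR*3 and 0.154 for PT3 against AstroEGFR*1 Zfp423, and 0.844 to 1.69 in the others, so values near 0 are least precise in AstroEGFR*3 and PT3. The overexpressed gene was higher than in the parent astrocytes in each AstroEGFR* Zfp423 library, with Zfp423 at 15.7, 9.73 and 105 FPKM (fragments mapped to a gene, scaled by transcript length and library size) against 4.30, 3.25 and 3.48 FPKM in AstroEGFR*. The 7 astrocyte markers were Gfap, Aqp4, Slc1a3, Slc1a2, Aldh1l1, S100b and Gja1. Their sum was 422 to 1032 FPKM in AstroEGFR* and 345 to 730 FPKM in PT, but only 186 and 57.2 FPKM in AstroEGFR*1 Zfp423 and AstroEGFR*2 Zfp423. They did not move alike in PT. Gja1 stood at 202 to 309 FPKM there against 85.0 to 196 FPKM in AstroEGFR*, and Aqp4 at 1.60 to 30.4 against 15.8 to 75.5 FPKM. In AstroEGFR*1 Zfp423 and AstroEGFR*2 Zfp423 each marker was lower than in the parent, except S100b in AstroEGFR*1 Zfp423 (6.99 against 1.91 FPKM). Those 2 libraries held 1172 and 688 FPKM over 7 microglial markers, against 6.86 FPKM or less in every other library; in AstroEGFR*3 Zfp423 4 of the 7 were at 0. The sum over 7 markers of fibroblasts or meninges was high in the same pair (4595 and 6364 FPKM) and in AstroEGFR*3 (5160 FPKM), lower in AstroEGFR*1 and 2 (291 and 496 FPKM) and 3.89 to 399 FPKM in PT. Over all features, AstroEGFR*3 Zfp423 correlated best with AstroEGFR*2 (r = 0.884) and less with its own parent (r = 0.721). In bulk RNA, fewer cells of a type and less RNA per cell cannot be told apart.

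Timp1, Timp2, Timp3 and Mmp14 reached the highest levels of these families. As FPKM are levels per length, genes can be ranked by them. Timp2 and Timp3 reached 702 and 829 FPKM in their highest libraries, Timp1 577 FPKM, and Mmp14, which is anchored in the membrane and cleaves collagen, 386 FPKM. Mmp14 was the most abundant Mmp in 8 of 10 libraries; Mmp15 exceeded it in PT4 and Mmp2 in AstroEGFR*2 Zfp423. Of the Adamts genes, Adamts14, which trims procollagen, reached the highest level at 102 FPKM. By contrast, 15 of the 46 genes stayed under 1 FPKM in all libraries, and Mmp7 was listed at 0 in each. A group mean of at least 10 FPKM was reached by 16 genes. Only genes whose mean reached 1 FPKM in a comparison were tested, 24 for PT and 28 for AstroEGFR* Zfp423.

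**Figure D1:**
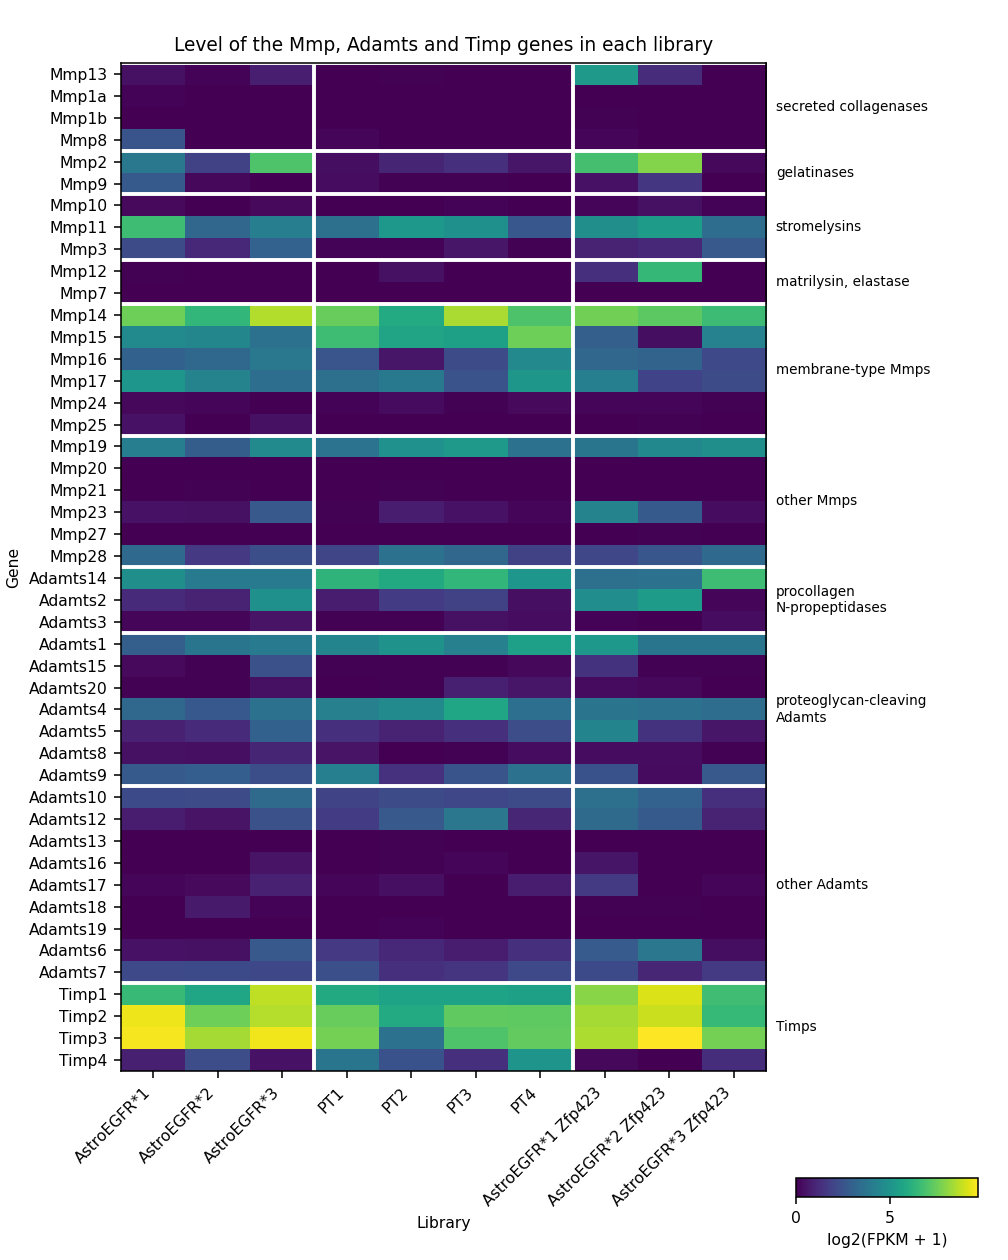
Heat map of log2(FPKM + 1) for the 46 genes (rows, grouped by role) in the 10 libraries (columns, in 3 groups parted by white lines). The rows of Timp1, Timp2, Timp3 and Mmp14 reach the brightest values. In several libraries other rows exceed some of them, such as Mmp15 and Adamts14 above Timp1 in PT1 and Mmp2 above Mmp14 in AstroEGFR*2 Zfp423. Timp3 falls to 11.5 FPKM in PT2, and 15 rows stay under 1 FPKM in every library.

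Many of the Mmps with the lowest levels are neighbours on 1 chromosome. In the mouse genome (GRCm38), 10 Mmp genes lie within 427 kb of chromosome 9, namely Mmp13, Mmp12, Mmp1b, Mmp3, Mmp1a, Mmp10, Mmp8, Mmp27, Mmp20 and Mmp7, and only Mmp3, Mmp8, Mmp12 and Mmp13 reached 1 FPKM in any library; of the other 36 genes 27 did. RefSeq promoters (250 bases before the annotated start, GRCm38.p6) matched 32 of the 46 genes in 35 windows. The AP-1 motif (TGANTCA on either strand) was found in 8 of 12 windows of the chromosome 9 cluster and in 0 of 23 windows of the other genes, with 6.75% of all 32851 promoters holding it. A TATA box (TATAAA, either strand) was found in 7 of the 12 and 2 of the 23 windows (12.4% of all promoters), and a GC box (GGGCGG, either strand) in 0 of the 12 and 16 of the 23 windows (32.7% of all promoters). The 3 motifs share no bases where they are shown. The promoters of 2 cluster genes, Mmp3 and Mmp13, are given first, followed by Mmp15, Timp2 and Timp3, whose levels are compared next; capitals mark AP-1 motifs and TATA boxes in the first pair and GC boxes (CCGCCC on the opposite strand) in the other 3.
Mmp3 (chr9:7445572-7445821, plus strand): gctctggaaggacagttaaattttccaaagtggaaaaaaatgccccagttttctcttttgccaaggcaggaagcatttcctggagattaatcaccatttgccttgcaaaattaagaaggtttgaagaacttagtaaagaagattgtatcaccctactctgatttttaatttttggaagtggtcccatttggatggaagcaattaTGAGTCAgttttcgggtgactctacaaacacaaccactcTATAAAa
Mmp13 (chr9:7272264-7272513, plus strand): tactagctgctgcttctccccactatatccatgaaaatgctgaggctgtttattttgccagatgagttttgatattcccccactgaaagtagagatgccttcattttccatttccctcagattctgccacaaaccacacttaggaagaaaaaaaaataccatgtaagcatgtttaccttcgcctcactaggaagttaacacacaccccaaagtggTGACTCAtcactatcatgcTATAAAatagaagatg
Mmp15 (chr8:95352046-95352295, plus strand): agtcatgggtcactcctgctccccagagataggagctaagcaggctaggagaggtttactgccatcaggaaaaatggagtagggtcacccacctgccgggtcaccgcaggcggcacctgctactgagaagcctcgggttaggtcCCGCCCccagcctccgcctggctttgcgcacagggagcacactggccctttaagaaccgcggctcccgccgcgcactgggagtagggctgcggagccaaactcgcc
Timp2 (chr11:118355412-118355661, minus strand): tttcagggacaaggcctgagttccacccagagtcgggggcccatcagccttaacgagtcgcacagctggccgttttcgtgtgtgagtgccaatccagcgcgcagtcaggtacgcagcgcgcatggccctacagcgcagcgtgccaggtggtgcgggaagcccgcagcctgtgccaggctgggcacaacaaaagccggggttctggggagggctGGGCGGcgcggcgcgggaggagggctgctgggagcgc
Timp3 (chr10:86300162-86300411, plus strand): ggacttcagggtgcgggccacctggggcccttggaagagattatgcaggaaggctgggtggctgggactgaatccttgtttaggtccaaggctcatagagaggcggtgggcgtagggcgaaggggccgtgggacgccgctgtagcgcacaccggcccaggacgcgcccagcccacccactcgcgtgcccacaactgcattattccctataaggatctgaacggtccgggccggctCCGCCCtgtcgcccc
The AP-1 motif of Mmp3 starts 46 bases and that of Mmp13 35 bases before the annotated start. A match is a string of letters and does not show that a factor binds there.

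The comparison of PT with AstroEGFR* asks which of these genes differed between glioma propagating cells and the tumorigenic astrocytes they derive from. Timp2 and Timp3 were lower in every PT library than in any AstroEGFR* library, and so were Mmp2 and Mmp3, while Mmp15, Adamts1 and Adamts14 were higher in every PT library. None of the 24 genes passed an adjusted p of 0.05 in the unpaired limma fit, in which 1.24% of all 12261 features did; 8 of 24 had an unadjusted p under 0.05, against 13.6% of all features. With the astrocyte batch as a block, 3 of 24 passed (Mmp15 higher, Timp2 and Timp3 lower), against 3.87% of all features. Groups without overlap were seen for 3 genes that were higher (6.95% of all features) and 4 that were lower (7.81%). In all 4 within-batch pairs, 6 genes were higher and 6 lower, and the shares over all features were 21.7% and 18.2%. Across the 24 genes the median difference was -0.31 on the log2(FPKM + 1) scale, and across all features tested 0.03. On this scale, differences of genes near 1 FPKM are understated. The sum of fibroblast markers was lower in each PT library than in its parent, though the groups overlapped (399 FPKM in PT3, 291 FPKM in AstroEGFR*1). The sum of 6 mural cell markers did not overlap (755 to 1805 FPKM in AstroEGFR*, 2.27 to 27.1 FPKM in PT). In AstroEGFR* the mural sum was almost all Acta2, at 725 to 1730 FPKM, with Pdgfrb at 27.9 to 65.7 FPKM, while Notch3 overlapped between the groups. The part of these cell types in the results was not tested.

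Of the inhibitors, Timp1, Timp2 and Timp3 were each lower in PT than in the parent batch in all 4 pairs, and Timp4 was higher. Timp3 stood at 759, 338 and 725 FPKM in AstroEGFR*1, 2 and 3 whereas PT1, 2, 3 and 4 held 203, 11.5, 131 and 164 FPKM. The groups did not overlap, and PT2 was far below the other PT libraries. The difference was -2.73 ± 0.96 (SE, log2 scale, n = 3 and 4; limma adjusted p = 0.272) without and -2.99 ± 0.53 (adjusted p = 0.0481) with the batch as a block. Timp2, which both inhibits Mmps and takes part in the activation of proMmp2, was at 702, 189.7 and 394 FPKM in AstroEGFR* and at 173, 60.3, 162 and 156 FPKM in PT. Its lowest astrocyte library, AstroEGFR*2, lay just above the highest PT library. The difference was -1.55 ± 0.55 (limma adjusted p = 0.279), or -1.71 ± 0.21 with the block (adjusted p = 0.0267). Both calls, and that of Mmp15, were lost whenever any of the 7 libraries was left out of the blocked fit, with adjusted p from 0.0529 to 0.164 over the 3 genes. Directions were kept, with differences of -1.90 to -1.46 for Timp2, -3.61 to -2.23 for Timp3 and 1.53 to 2.21 for Mmp15, while the features called over the whole table went from 475 to between 5 and 186.

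Timp1, a secreted inhibitor that is induced by many cytokines, was at 93.8, 53.0 and 431 FPKM in AstroEGFR* and at 59.0, 48.8, 48.0 and 44.5 FPKM in PT. PT1 exceeded AstroEGFR*2, so the groups overlapped, and the PT libraries lay close together. The difference of -1.36 ± 0.64 did not pass the test (limma adjusted p = 0.414, and 0.21 with the block), and without AstroEGFR*3 it was -0.49 (adjusted p = 0.632). Timp4, the Timp with the narrowest range of tissues, was at 0.803, 3.95 and 0.377 FPKM in AstroEGFR* and at 12.6, 4.49, 1.44 and 31.7 FPKM in PT. PT1 and PT4, both from batch 1, were highest and PT3 was below AstroEGFR*2; the difference of 1.93 ± 0.89 had an adjusted p of 0.405 in limma and ranged from 0.49 (with the block and without AstroEGFR*1) to 2.60 (with a pseudocount of 0.1) over the alternatives. Exons of Timp4 overlap those of Syn2 on the opposite strand, and Syn2 was also highest in PT1 and PT4, at 6.91 and 14.0 FPKM against 0.0635 to 1.79 FPKM in PT3, PT2 and AstroEGFR*. Whether fragments were assigned by strand is not given in the sources used here. Timp3 exons likewise overlap those of Syn3 on the opposite strand, but Syn3 did not exceed 1.71 FPKM in any library. The summed markers of the oligodendrocyte lineage were also highest in PT1 and PT4, at 1356 and 1648 FPKM. They were at 61.1 to 222 FPKM in AstroEGFR* and at 130 and 145 FPKM in PT3 and PT2. Most of the sum was Olig1 and Olig2 (1000 and 328 FPKM in PT1, 1089 and 360 FPKM in PT4), while Mbp was at 0.237 and 1.16 FPKM. The part of these markers in the level of Timp4 was not tested.

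**Figure D2:**
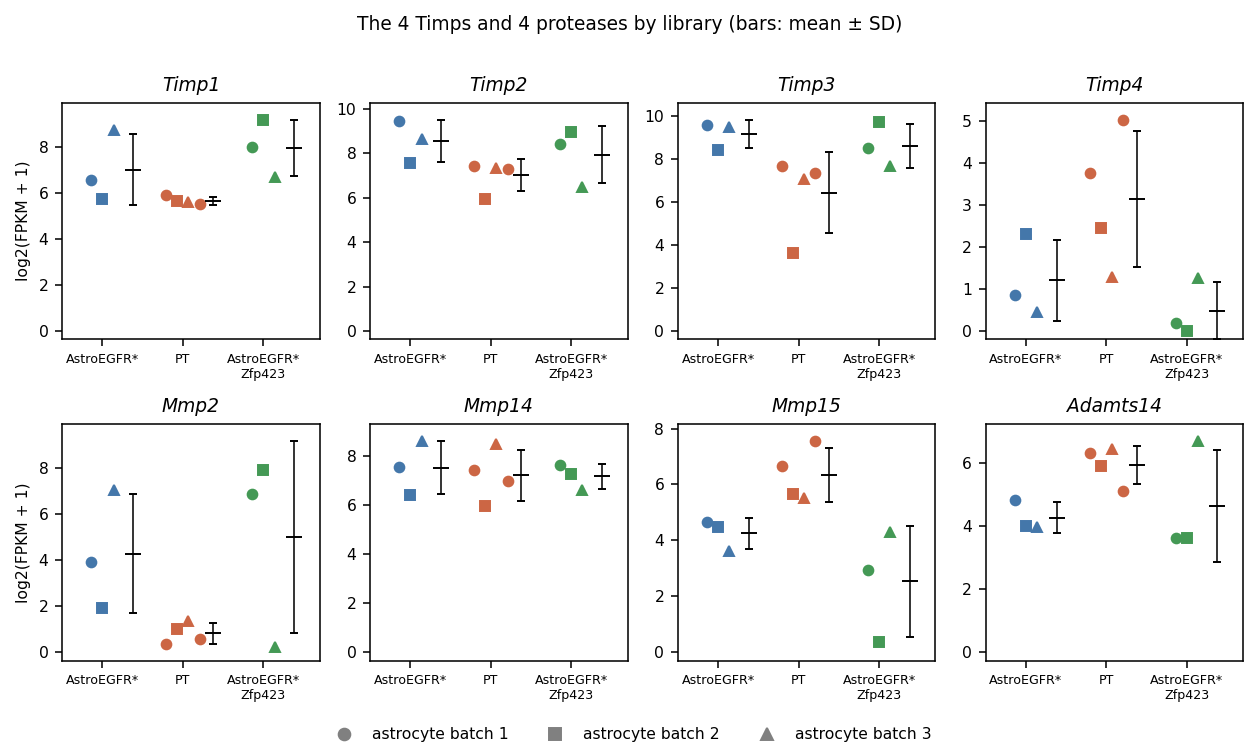
Level of 8 genes as log2(FPKM + 1) in each library (y axis) by group (x axis); marker shapes give the astrocyte batch, and black bars the mean ± SD of the group. Timp2, Timp3 and Mmp2 lie lower in all PT libraries than in AstroEGFR*, Mmp15 and Adamts14 lie higher, and the AstroEGFR* Zfp423 libraries spread widely for Mmp2, Mmp15 and Adamts14.

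Among the membrane-type Mmps, Mmp15 was higher in PT and Mmp14 was not distinguishable between the groups. Mmp15, a membrane-type Mmp that can also activate proMmp2, was at 24.2, 21.1 and 11.4 FPKM in AstroEGFR* and at 101, 49.2, 44.5 and 187 FPKM in PT. Every PT library was above every AstroEGFR* library. The difference was 2.10 ± 0.54 (limma adjusted p = 0.132) and 1.90 ± 0.33 with the block (adjusted p = 0.0476). Mmp14 was at 188, 85.0 and 386 FPKM in AstroEGFR* and at 171, 60.7, 355 and 126 FPKM in PT. Each PT library was below its own parent batch, with differences of -0.57 to -0.12 on the log2 scale, while the batches lay farther apart; the difference between groups was -0.32 ± 0.69 (limma adjusted p = 0.897), or -0.32 with the block (adjusted p = 0.339). Mmp17, which is held in the membrane by a lipid anchor, was at 33.3, 19.3 and 10.4 FPKM in AstroEGFR* and 11.0, 14.3, 4.62 and 34.3 FPKM in PT, overlapping groups with an adjusted p of 0.789 in limma. Mmp16 ranged from 0.492 to 22.5 FPKM over both groups and did not pass the test (adjusted p = 0.715), and Mmp24 and Mmp25 did not exceed 0.396 FPKM in any library.

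Of the secreted Mmps, the gelatinase Mmp2 and the stromelysin Mmp3 were lower in every PT library than in AstroEGFR*. Mmp2, which cleaves denatured collagen and type IV collagen, was at 13.9, 2.78 and 128 FPKM in AstroEGFR* and at 0.267, 0.985, 1.55 and 0.491 FPKM in PT. AstroEGFR*3, the library rich in fibroblast markers, was highest, but both other AstroEGFR* libraries were also above all PT libraries. The difference was -3.46 ± 1.05 (limma adjusted p = 0.193), and with the block the adjusted p was 0.0821; without AstroEGFR*3 the unpaired difference was -2.09 (adjusted p = 0.276). Mmp3, which was chosen for description after its values were seen, was at 3.69, 1.14 and 7.25 FPKM in AstroEGFR* and at 0.0609, 0.0643, 0.51 and 0.0276 FPKM in PT (-1.92 ± 0.50, limma adjusted p = 0.137). In an exact permutation test over libraries (two-sided), Mmp2, Mmp3, Mmp15 and Timp2 each gave p = 0.0286, the smallest that 3 against 4 libraries allow, which 8.88% of all features reached. Timp3, Adamts1 and Adamts14, whose groups did not overlap either, gave an exact p of 0.0571. The test treats the 7 libraries as exchangeable and so ignores the batches, including that PT1 and PT4 share an astrocyte culture (r = 0.956 between them over all features). Mmp11, which despite its name stromelysin-3 cleaves matrix poorly, showed batch values of 101, 8.20 and 16.9 FPKM in AstroEGFR* and 11.1, 34.98, 28.4 and 5.26 FPKM in PT. It was lower in both PT libraries of batch 1 and higher in PT2 and PT3 than in their parents. Mmp19, a widely expressed secreted Mmp, lay between 6.31 and 36.5 FPKM in all 7 libraries and was likewise lower in both PT libraries of batch 1 and higher in the other pairs. Exons of Mmp11 and Mmp19 overlap those of Chchd10 and Tmem198b, respectively, on the opposite strand. The gelatinase Mmp9 exceeded 1 FPKM only in AstroEGFR*1 (5.71 FPKM) and AstroEGFR*2 Zfp423 (1.89 FPKM), and the collagenase Mmp8 only in AstroEGFR*1 (4.73 FPKM). Mmp12 and Mmp13 did not exceed 0.737 FPKM in either group and were not tested.

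Adamts14, which trims procollagen, and the proteoglycan-cleaving Adamts1 and Adamts4 had higher means in PT, without passing the test. Adamts14 was at 27.2, 14.9 and 14.7 FPKM in AstroEGFR* and at 77.8, 58.7, 85.7 and 33.2 FPKM in PT. The groups did not overlap, and PT4 was close to its parent AstroEGFR*1; the difference was 1.68 ± 0.39 (limma adjusted p = 0.105, and 0.09 with the block). Adamts1, which cleaves versican and aggrecan, was at 6.63, 12.6 and 14.8 FPKM in AstroEGFR* and at 19.5, 30.6, 17.7 and 43.6 FPKM in PT, also without overlap (1.20 ± 0.40, limma adjusted p = 0.241). Adamts4, an aggrecanase that also cleaves brevican, was at 8.47, 5.36 and 11.5 FPKM in AstroEGFR* and at 17.6, 23.8, 50.8 and 10.7 FPKM in PT, where PT4 fell below AstroEGFR*3 (1.34 ± 0.50, limma adjusted p = 0.308). The other tested members of this class, Adamts5 and Adamts9, lay at 0.854 to 17.1 FPKM with overlapping groups. Adamts2, the main peptidase of procollagen I, was at 1.21, 0.975 and 28.5 FPKM in AstroEGFR* and at 0.716, 2.30, 2.66 and 0.322 FPKM in PT. Its difference of -1.14 ± 0.96 rested on AstroEGFR*3, and without that library it was 0.13. Among the other 9 Adamts genes 4 were tested, with 1 higher and 3 lower, and their highest level in any library was 13.5 FPKM.

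**Figure D3:**
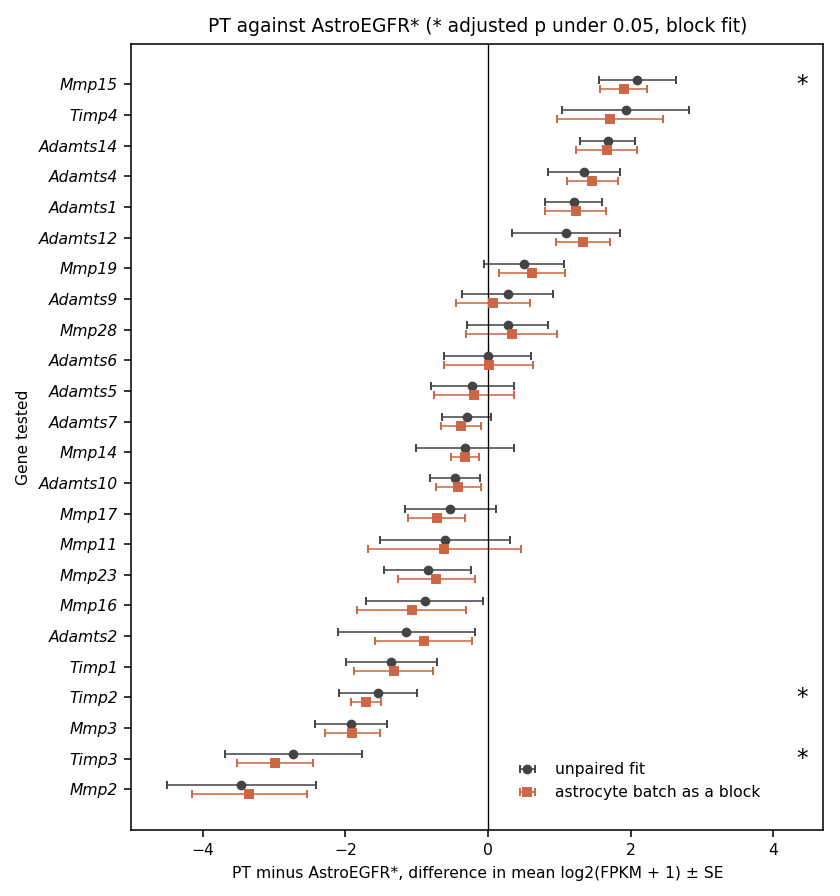
Difference in mean log2(FPKM + 1) of PT minus AstroEGFR* (x axis, ± SE) for the 24 genes tested (y axis), in the unpaired fit (circles) and with the astrocyte batch as a block (squares). Stars mark the 3 genes with an adjusted p under 0.05 in the blocked fit, Mmp15 on the higher side and Timp2 and Timp3 on the lower side.

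The summed level of the Timps relative to that of the Mmps was lower in all PT libraries, a sum chosen for description after its values were seen. The 4 Timps summed to 1557, 584 and 1551 FPKM in AstroEGFR* and to 447, 125, 342 and 396 FPKM in PT. The 23 Mmps summed to 409, 155 and 607 FPKM in AstroEGFR* and to 315, 203, 483 and 391 FPKM in PT. The ratio of the Timp sum to the Mmp sum was thus 3.81, 3.77 and 2.55 in AstroEGFR* and 1.42, 0.617, 0.707 and 1.01 in PT, without overlap. In AstroEGFR* Zfp423 the ratio was 2.13, 3.35 and 2.24, between the PT range and the top of the AstroEGFR* range. Transcript sums weigh all Mmps alike and are not a measure of protein or activity.

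**Figure D4:**
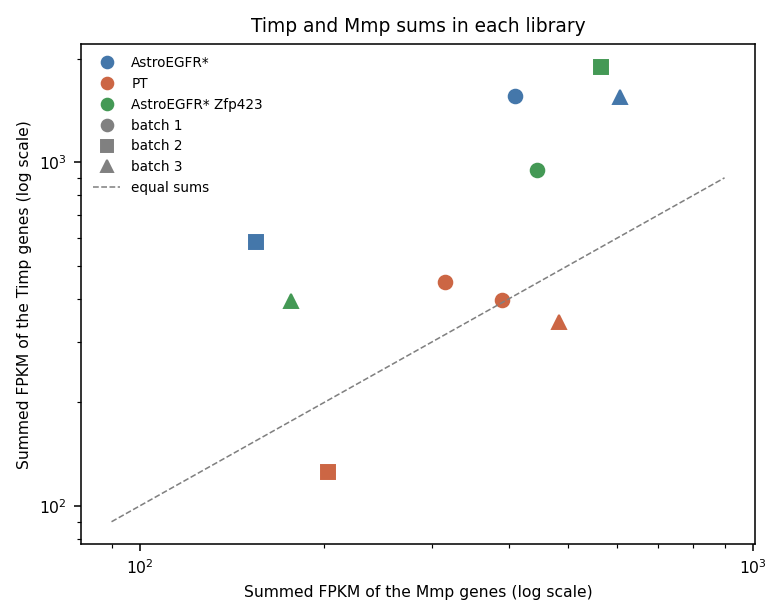
Summed FPKM of the 4 Timp genes (y axis, log scale) against that of the 23 Mmp genes (x axis, log scale), with 1 point per library, colours for groups and shapes for astrocyte batches. The AstroEGFR* points lie at ratios of 2.55 to 3.81, well above the dashed line of equal sums, and the PT points at 0.617 to 1.42.

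Genes that act with these proteases were examined as 4 lists. Calls with the batch as a block are given beside the others, and they come from the fit that called 3.87% of all features, or 475, and 5 to 186 when 1 library was left out. Of 18 activators, docking proteins, uptake receptors and other inhibitors, 16 were tested in PT against AstroEGFR*. With the batch as a block, the convertase Pcsk6 was called lower (-3.18 ± 0.53, limma adjusted p = 0.0432). Lrp1, an endocytic receptor that takes up Mmp, Adamts and Timp proteins, stood at 36.4 to 67.1 FPKM in AstroEGFR* and 118 to 168 FPKM in PT, just short of the threshold (1.55 ± 0.29, limma adjusted p = 0.0553). The membrane-anchored Mmp inhibitor Reck stood at 3.85 to 10.9 FPKM in AstroEGFR* and 1.19 to 6.69 FPKM in PT (limma adjusted p = 0.314).

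Among 16 matrix substrates, 13 were tested and 1 passed, Bcan, which encodes brevican, a substrate of Adamts4. Bcan was at 3.04, 6.07 and 1.87 FPKM in AstroEGFR* and at 72.3, 81.5, 74.0 and 211 FPKM in PT (4.51 ± 0.47, limma adjusted p = 0.0103). With the block, Vcan (versican) was called higher as well (1.50 ± 0.17, adjusted p = 0.0225), while Col1a1, Col1a2 and Fn1 (type I collagen and fibronectin) were called lower, by limma adjusted p of 0.038, 0.0206 and 0.0362. Col1a1 and Col1a2 are also on the list of fibroblast markers. Of 6 Adamts-like proteins, which resemble Adamts but lack the protease domain, 5 were tested and Adamtsl4 passed as lower (-3.10 ± 0.35, limma adjusted p = 0.0109), and with the block Adamtsl3 was called lower as well (-3.02 ± 0.52, adjusted p = 0.0462). Adamtsl4 fell from 18.3, 13.6 and 14.0 FPKM in AstroEGFR* to 1.91, 0.243, 0.667 and 1.11 FPKM in PT. Of 12 Adam proteases, the membrane-bound relatives of Adamts, 8 were tested and 0 passed, with 1 at an unadjusted p under 0.05, and with the block Adam19 was called higher (2.10 ± 0.30, limma adjusted p = 0.032).

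The comparison of AstroEGFR* Zfp423 with AstroEGFR* asks how the same genes stood after Zfp423 was overexpressed. The differences ran in different directions in the 3 batches. With limma and the batch as a block, 0 of 28 genes passed, as did 0.0% of all 12366 features (2 without the block); at an unadjusted p under 0.05 there was 1 of 28 genes, against 7.38% of all features. None of the 28 had groups without overlap, which 5.68% of all features had towards higher and 5.87% towards lower levels. In batches 1 and 2 the level was higher and in batch 3 lower than in the parent for 12 of 28 genes, against 17.3% of all features; this pattern was chosen after the values were seen. These differences rest on the numbered parent. Over all features, the deviations of AstroEGFR*2 Zfp423 from its group mean correlated best with those of AstroEGFR*3 (0.305, against -0.11 with AstroEGFR*2), and those of AstroEGFR*3 Zfp423 best with AstroEGFR*2 (0.223, against -0.261 with AstroEGFR*3). PT2 and PT3, by contrast, correlated best with AstroEGFR*2 and AstroEGFR*3 (0.426 and 0.50), the parents of their own batches. AstroEGFR*3 and PT3 also had the lowest relative depths (0.117 and 0.154), and the part of depth in their correlation was not tested. Without subtracting group means, AstroEGFR*2 Zfp423 correlated better with AstroEGFR*2 (r = 0.783) than with AstroEGFR*3 (r = 0.748). On the same measure AstroEGFR*3 Zfp423 also correlated better with AstroEGFR*2 (r = 0.884) than with AstroEGFR*3 (r = 0.721). Whether the parents of batches 2 and 3 are as labelled was not tested. The 12 genes were Mmp2, Mmp13, Mmp14, Mmp23, Timp1, Adamts2, Adamts4, Adamts5, Adamts6, Adamts10, Adamts12 and Adamts15. The opposite pattern was seen for Mmp15, Timp4, Adamts9 and Adamts14 (15.0% of all features). The sums of microglial and fibroblast markers were higher than in the parent in batches 1 and 2 and lower in batch 3 (0.0779 against 1.77 FPKM for microglia and 223 against 5160 FPKM for fibroblasts), and their part in these values was not tested. With only batches 1 and 2, 0 of 28 genes passed and 10 had an unadjusted p under 0.05, against 14.3% of all features.

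Mmp2 spread the most of the secreted Mmps. It stood at 114, 237 and 0.157 FPKM in the AstroEGFR* Zfp423 libraries of batches 1, 2 and 3, against 13.9, 2.78 and 128 FPKM in their parents. The difference of 0.71 ± 2.67 (limma adjusted p = 0.95) averaged within-batch differences of 2.95, 5.98 and -6.80 on the log2 scale. Mmp12, the elastase of macrophages, was at 1.48, 87.7 and 0 FPKM, and at 0.0509 FPKM or less in all parents. Mmp13, a collagenase, was at 37.1, 1.34 and 0 FPKM, against 0.34, 0.0576 and 0.737 FPKM. The highest library thus differed between Mmp12 and Mmp13, and both were among the 2 libraries with microglial markers. Exons of Mmp12 overlap those of Mmp1b on the opposite strand, and Mmp1b did not exceed 0.0303 FPKM in any library.

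Mmp17 was the gene with an unadjusted p under 0.05 and the only one of the 28 that was lower in all 3 batches (15.2% of all features). It stood at 17.1, 2.90 and 3.83 FPKM against 33.3, 19.3 and 10.4 FPKM in the parents (-1.52 ± 0.38, limma adjusted p = 0.628). As the batches differed, the groups overlapped. Mmp15 stood at 6.61, 0.291 and 18.7 FPKM against 24.2, 21.1 and 11.4 FPKM (-1.72 ± 0.97, limma adjusted p = 0.67), lowest in the library with the lowest sum of astrocyte markers. Mmp14 was at 198, 153 and 98.0 FPKM and stayed within the range of the parents (-0.35 ± 0.63, limma adjusted p = 0.888). Mmp11 (10.2 to 40.4 FPKM) and Mmp19 (12.6 to 27.7 FPKM) overlapped with AstroEGFR* and were higher than the parent in batch 2 and lower in batch 1.

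**Figure D5:**
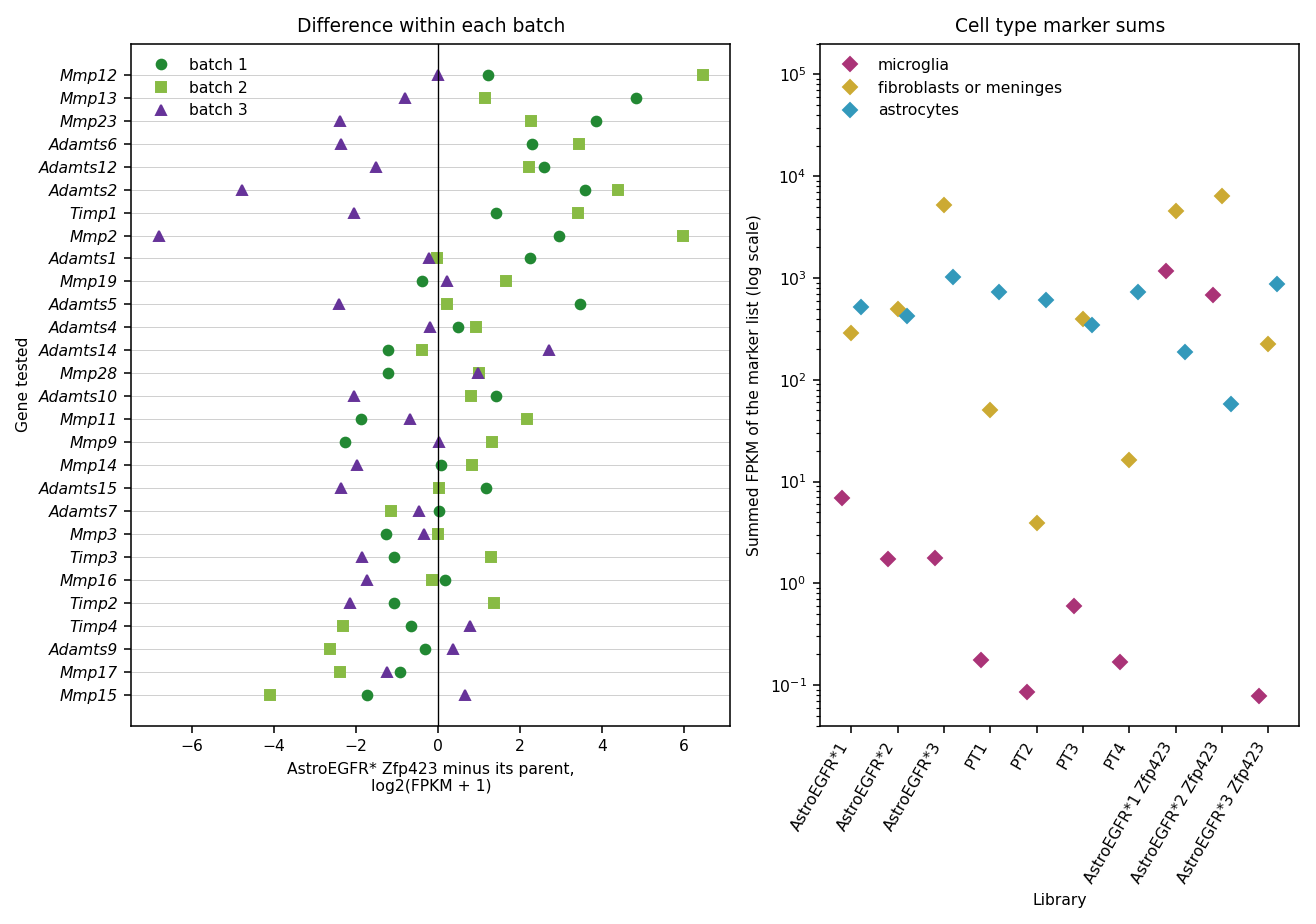
Left, difference of each AstroEGFR* Zfp423 library from its parent in log2(FPKM + 1) (x axis) for the 28 genes tested (y axis), with a marker shape per batch. Right, summed FPKM of the microglial, fibroblast or meninges, and astrocyte markers (y axis, log scale) in each library (x axis). Batches 1 and 2 lie to the right and batch 3 to the left of 0 for 12 genes, among them Mmp2 and Adamts2.

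The Timps differed in direction between batches and from each other. Timp1 was at 253, 577 and 104 FPKM, higher than the parent in batches 1 and 2 and lower in batch 3 (0.93 ± 1.13, limma adjusted p = 0.828). Timp2 was at 336, 488 and 88.5 FPKM and Timp3 at 361, 829 and 201 FPKM. Both were higher than the parent in batch 2 and lower in batches 1 and 3, with differences of -0.62 ± 0.77 and -0.54 ± 0.73 (limma adjusted p = 0.837 and 0.854). Timp4 was at 0.148, 0 and 1.39 FPKM (-0.72 ± 0.76, limma adjusted p = 0.801). Adamts2 was at 25.7, 40.3 and 0.0876 FPKM and followed the order of Mmp2 over these 3 libraries, whereas Adamts14, at 11.1, 11.1 and 102 FPKM, was highest where Adamts2 was lowest. Adamts1 was at 34.996, 12.5 and 12.5 FPKM, higher than the parent in batch 1 alone. Adamts4 was at 12.3, 11.2 and 10.1 FPKM, all within the range of PT and AstroEGFR*. Of the 4 related lists, 0 genes passed in this comparison, with 1 of 16 regulators, 2 of 9 Adam proteases, 0 of 5 Adamts-like proteins and 0 of 13 substrates at an unadjusted p under 0.05.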

How the data were processed

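RNA was sequenced from 10 mouse cultures; the labels name a TruSeq RNA kit and the study's methods a ribosomal depletion and stranded kits, and which applied to each library is not given in the sources used here. The authors deposited 1 table of FPKM values, fragments normalised to transcript length and library size; the submitters' processing notes name TopHat 1.3, Cuffnorm and the mm9 genome. Library totals were not used here, and depth in counts is unknown, so counting error could only be ranked from steps in low values. Genes used by every cell can be listed near 0 (Gapdh 0.0106 to 50.1 FPKM, Hmgcs1 0 in all libraries), so a listing at 0 is not taken as absence.

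FPKM were analysed as log2(FPKM + 1) with limma 3.58.1 in R 4.3.3 (trended empirical Bayes), keeping features whose mean reached 1 FPKM across the compared libraries. P-values were adjusted over all features tested by Benjamini-Hochberg, with a threshold of 0.05. PT were compared with AstroEGFR* without pairing, and AstroEGFR* Zfp423 with AstroEGFR* with the batch as a block. The pairing comes from the numbers in the labels and, for PT, from a figure of the study that ties each PT to an astrocyte batch. Deviations from the group mean correlated with those of the own parent at 0.347, 0.426, 0.50 and 0.422 for PT1 to PT4, each highest with the own parent, and at 0.239, -0.11 and -0.261 for AstroEGFR* Zfp423. Each p measures the spread between these cultures, with PT1 and PT4 counted separately though both derive from batch 1. With PT1 and PT4 averaged, 61 of 12242 features passed in the unpaired limma fit, against 152 of 12261 without averaging. Of the Mmp, Adamts and Timp genes, 0 of 25 passed in that fit. Exact permutation tests were two-sided; 3 against 3 libraries cannot go below 0.1. The script was tested on simulated data.

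Named in full were the 4 Timps and every gene past the threshold in either fit or with a group mean of at least 10 FPKM. The genes, lists and rules were chosen with earlier results of these data known. Results were recomputed with 0.1 as pseudocount, without the filter, with other pairing, all 10 libraries in 1 fit and with libraries left out. Gene overlaps are from GENCODE M21 (GRCm38) and promoters from RefSeq; no coordinates were converted. Some results on genes outside these families are not reported here. Figures were drawn with matplotlib 3.10.9.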

Additional observations from a re-analysis of the deposited data

Results flagged for a closer look

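In the group of 4 PT libraries, 1 library stood apart from the others for 4 of the 16 genes examined in this way. For each gene, the gap to the nearest library is given, divided by the whole range of the group. Gap and range were taken on the log2(FPKM + 1) scale, and on the FPKM scale the ratios differ. Chance flags about 1 in 20 such groups, and the genes are not independent. It was PT2 in each case. Timp2 (gap over range 0.904) and Timp3 (0.843) were lowest in PT2, at 60.3 and 11.5 FPKM against 156 to 173 and 131 to 203 FPKM in the other PT libraries. Mmp12 (1.0) and Mmp13 (0.838) were highest in PT2, at 0.358 and 0.028 FPKM. The other PT libraries were at 0 for Mmp12 and at 0.0045 FPKM or less for Mmp13, so that any value above 0 in PT2 gives a gap near the whole range, and these genes were not tested. Without PT2 the unpaired difference of Timp3 between PT and AstroEGFR* was -1.80 (limma adjusted p = 0.131).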

How the results depend on the processing

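The count of 0 of 24 genes past the threshold in PT against AstroEGFR* held under the alternative pseudocount, filter, scaling and fits and was 0 to 0 when each library was left out, but it was 3 with the astrocyte batch as a replicate block; the cause was not tested. With Zfp423 0 genes passed under every alternative run, and the block changed no call there. Of the single genes described, 11 of 14 kept their direction in PT under every alternative and 5 of 16 with Zfp423. In PT, leaving out 1 library gave differences of -1.82 to 0.13 for Adamts2, -1.34 to 0.39 for Mmp11 and -0.87 to 0.21 for Mmp14 (log2 scale); with the block as well, Mmp11 ranged from -1.72 to 1.34 and Adamts2 was at 0.00011 without either library of batch 3. With Zfp423, the same gave -0.11 to 1.12 for Adamts1, -0.80 to 1.16 for Adamts14, -0.59 to 3.99 for Adamts2, -1.28 to 0.74 for Mmp11, -0.95 to 0.46 for Mmp14, -0.068 to 0.94 for Mmp19, -1.93 to 4.46 for Mmp2, -0.31 to 2.42 for Timp1, -1.60 to 0.15 for Timp2, -1.46 to 0.11 for Timp3 and -1.48 to 0.071 for Timp4. With batches 1 and 2 only, an alternative chosen after seeing the data as was leaving libraries out of the blocked PT fit, Adamts14 was at -0.80, Mmp11 at 0.15, Mmp14 at 0.46, Timp2 at 0.15 and Timp3 at 0.11. Differences of genes near 0 are limited by the low depth of AstroEGFR*3 and PT3.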
